A study of Mus musculus with 4 samples.

Results

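The Hox genes encode homeodomain transcription factors that stand in 4 clusters, HoxA to HoxD, and are numbered by paralog group from 1 at the anterior end of a cluster to 13 at the posterior end. All gene symbols made of Hox, a cluster letter and a paralog number were taken, which gave 39 genes among the 24346 symbols listed, with 11 in HoxA, 10 in HoxB, 9 in HoxC and 9 in HoxD. RNA had been sequenced from cultured hair follicle stem cells (HFSCs) of C3H/HeN mice, an inbred wild-type strain, at 10 passages (10p-HFSCs) and at 48 passages (48p-HFSCs), with 2 libraries in each group. Both groups shared their source, which was dorsal skin epithelium of mice aged 4 weeks, sorted for cells positive for CD49f, the α6 integrin, and for CD34, and their weekly passage in the serum-free medium M-CnT. The comparison asks which Hox genes the cells carried after short and long culture. No source used here says whether the 2 libraries of a group came from separate cultures or how many mice gave the cells, so the p-values measure only the spread between these libraries, which may be technical.

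During development, Hox genes are switched on in the order in which they stand along the chromosome, so that cells at each level of the body axis come to hold their own combination. Adult skin cells keep part of that combination, which is read as a positional code. Hox proteins bind DNA together with TALE homeodomain cofactors of the Pbx, Meis and Pknox families. Trithorax proteins maintain active Hox genes, Polycomb proteins maintain silent ones, and retinoic acid is an upstream input to the anterior genes.

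Gene levels were deposited as FPKM, fragment numbers scaled by transcript length and by library size, so that levels can be compared between genes. The files hold no read totals. From the spacing of the lowest values in genes with a single transcript, the libraries were estimated to hold about 20400000 and 14600000 fragments for 10p-HFSCs and about 16900000 and 9500000 fragments for 48p-HFSCs, for an assumed fragment length of 200 bases. Between 69.0% and 74.5% of these values under 5.5 fragments lay within 0.05 of a whole number from 1 to 5. Replicate 2 of 48p-HFSCs was the shallowest library and also stood apart in the sum of its FPKM values, which was 1414953 compared with 581516 to 719012 in the other libraries. In 48p-HFSCs, 1871 genes differed by 2-fold or more between the replicates, and in 10p-HFSCs 151 did. Of 10 hair follicle stem cell markers, 7 were left out of the test by their low values. Cd34 was at most 0.234, Lgr5 at most 0.0303, Lhx2 at most 0.0241 and Nfatc1 at most 0.0159 in every library. These defining markers of the labelled cell type were thus at or near 0 in the FPKM values. By immunostaining, the paper reports that most cells were CD34-positive at both passages. By qRT-PCR it reports that CD34 expression was maintained and that Lhx2 increased in 48p-HFSCs. The reason for this disagreement was not tested. Other markers of the list were present, with Krt15 at 18.8 to 425, Sox9 at 8.31 to 45.6 and Nfib at 5.86 to 12.97 FPKM. For Sox9 the paper reports by qRT-PCR an increase after long-term culture. The FPKM values of Sox9 went the other way, with 45.6 and 44.2 in 10p-HFSCs, then 20.2 and 8.31 in 48p-HFSCs. Why the direction differed was not tested. The keratinocyte markers were all measured, and Krt5 stood between 1473 and 8156 and Krt14 between 1217 and 3896 FPKM.

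Hox transcripts came nearly entirely from the HoxA and HoxB clusters in both groups. With expression taken as an FPKM of at least 1 in both libraries of a group, 15 Hox genes were expressed in 10p-HFSCs, namely 7 of HoxA and 8 of HoxB, and 10 were expressed in 48p-HFSCs, namely 5 of HoxA and 5 of HoxB. The genes Hoxa6, Hoxa9, Hoxb3, Hoxb4 and Hoxb8 met this limit in 10p-HFSCs and did not meet it in 48p-HFSCs. The gap between the groups depends on the limit and on the shallowest library, since at an FPKM of at least 0.3 the counts were 16 and 14, at an FPKM of at least 3 they were 11 and 3, and 14 genes met the limit of 1 in 48p-HFSCs without replicate 2. No HoxC or HoxD gene met it in either group, and the highest value was 0.933 in HoxC and 0.0250 in HoxD. In all 4 libraries, 15 Hox genes were listed at 0, which were 8 of the 9 HoxD genes, Hoxc8, Hoxc11, Hoxc12 and Hoxc13, Hoxa11, Hoxa13 and Hoxb13. Hoxc13, which controls hair keratin genes in the follicle, was thus among the genes listed at 0. A count of 0 allows up to 3 fragments, which for these genes was an FPKM between 0.0464 and 0.378 by gene and library under the depth estimate, for counting error only. A level below that could thus go undetected at this depth.

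**Figure D1:**
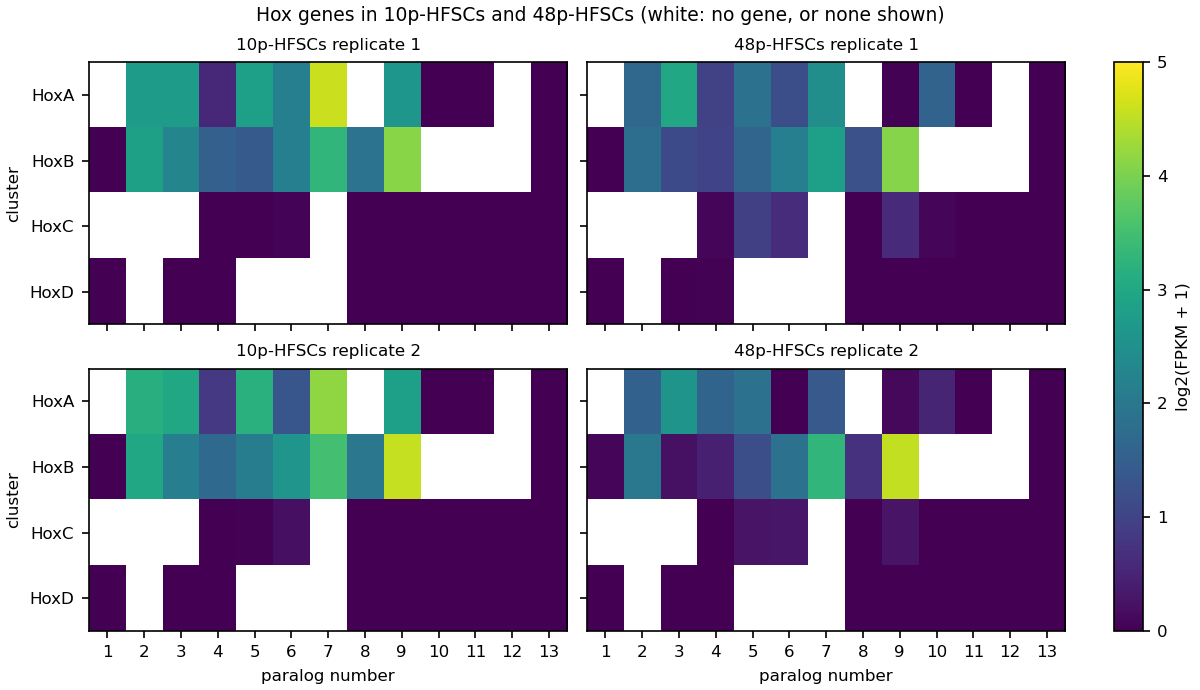
Level of the Hox genes in the 4 libraries as log2(FPKM + 1), with clusters as rows, paralog numbers as columns and white where the mouse has no gene or none is shown. Raised levels are found in the HoxA and HoxB rows up to paralog 9, with fainter squares at Hoxa10 and in the HoxC row of the 48p libraries, the Hoxa9 square is colored in both 10p libraries and dark in both 48p libraries, and the HoxD row is dark throughout.

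Hoxb9, a trunk-level gene of the central to posterior type, was the highest Hox gene in 3 of the 4 libraries. Its FPKM was 16.2 and 22.7 in 10p-HFSCs, then 15.9 and 22.3 in 48p-HFSCs, so that the groups overlapped almost fully (log2 difference -0.02 ± 0.31, SE, adjusted p = 0.97). Hoxa7 reached the same height in 10p-HFSCs only, with 23.2 and 17.1. Next in 10p-HFSCs came Hoxb7 at 8.80 and 10.4. In 48p-HFSCs, Hoxa3 was second in replicate 1, at 6.95 compared with 6.08 for Hoxb7. Hoxb7 was second in replicate 2, at 8.83 compared with 5.01 for Hoxa3.

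The summed FPKM of the 39 Hox genes was 98.4 and 110 in 10p-HFSCs, then 61.1 and 55.7 in 48p-HFSCs. Shares of that sum do not depend on the scaling of a library as a whole. HoxA genes made up 54.4% and 48.1% of it in 10p-HFSCs, compared with 41.5% and 28.1% in 48p-HFSCs, whereas HoxB genes made up 45.5% and 51.7% and then 55.0% and 70.7%. Hoxb9 alone took 16.5% and 20.6% in 10p-HFSCs, then 26.1% and 40.1% in 48p-HFSCs. The ratio of Hoxa7 to Hoxb9 within a library was 1.43 and 0.753 in 10p-HFSCs, then 0.286 and 0.0723 in 48p-HFSCs. The groups did not overlap in any of these shares or in the ratio, and with 2 libraries against 2 an exact two-sided permutation test cannot give a p below 0.333.

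**Figure D2:**
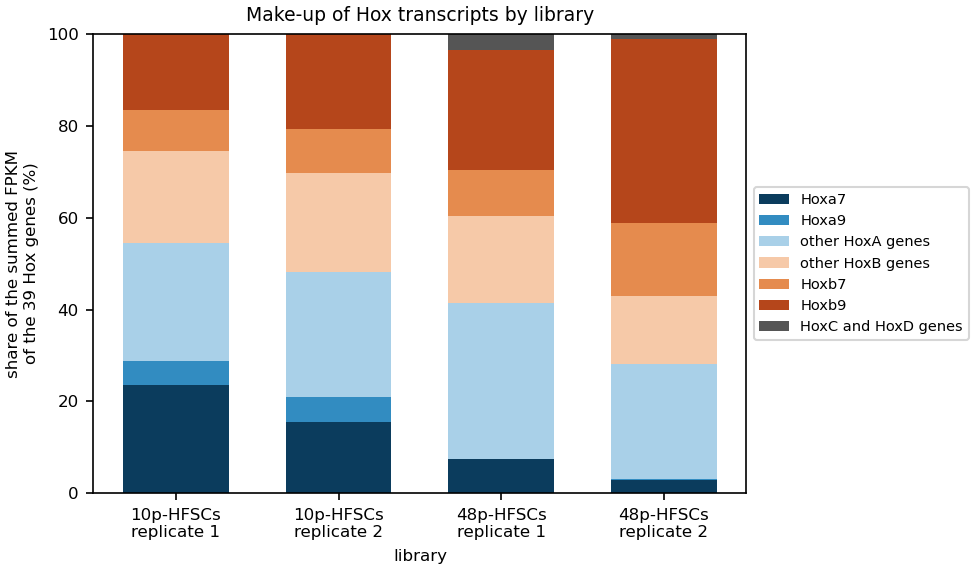
Share of the summed FPKM of the 39 Hox genes in each library, in percent, by gene or cluster. The Hoxa7 segment narrows from 23.5% and 15.5% in 10p-HFSCs to 7.45% and 2.90% in 48p-HFSCs, and the Hoxb9 segment is widest in the 48p libraries.

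Of the 39 Hox genes, 15 passed the filter of an FPKM of at least 1 in 2 or more libraries and were tested, and 6 of these were called lower in 48p-HFSCs (Hoxa2, Hoxa5, Hoxa7, Hoxa9, Hoxb2 and Hoxb3) at an adjusted p under 0.05 and a log2 difference of at least 1. None of the 15 was called higher by limma or was higher at an unadjusted p under 0.05. Without a filter on low values, limma gave Hoxa10 and Hoxc9 higher values in 48p-HFSCs at unadjusted p of 0.045 and 0.019, and neither was called (adjusted p = 0.16 and 0.097). Among all 11018 genes tested, 9.15% were called lower and 10.8% were called higher. Hoxa9 and Hoxb4 passed the filter through 10p-HFSCs alone and could therefore only differ downward, and 24 members were not tested. Of the 6 calls, those of Hoxa2, Hoxa5, Hoxa7, Hoxb2 and Hoxb3 had a direction that the filter did not fix. The 15 fitted differences were all below 0 with a median of -0.97, compared with a median of -0.03 over all genes tested, and both 48p libraries lay below both 10p libraries in 9 of the 15 genes and in 34.3% of all genes tested. Under quantile normalization the difference of Hoxa3 was 0.029. The number of Hox genes called lower was 1 without replicate 1 of 10p-HFSCs and 1 without replicate 2 of 10p-HFSCs, which was Hoxa9 in both, 8 without replicate 1 of 48p-HFSCs and 3 without replicate 2 of 48p-HFSCs. The numbers of all genes called fell in the same fits, to 35 higher and 140 lower without replicate 1 of 10p-HFSCs and to 36 and 146 without replicate 2. When each library was rescaled to TPM, 3 Hox genes (Hoxa7, Hoxa9 and Hoxb3) were called lower.

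**Figure D3:**
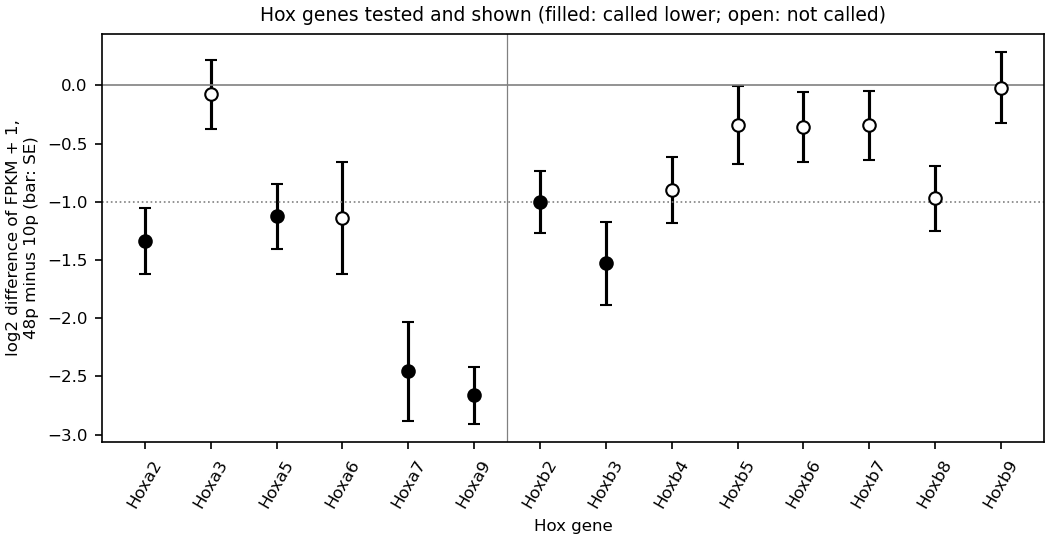
Difference between groups in log2(FPKM + 1), 48p minus 10p, for 14 of the Hox genes tested, with HoxA genes left and HoxB genes right of the vertical line, bars for the SE and filled circles for genes called lower. Hoxa7 and Hoxa9 lie lowest at -2.46 and -2.66, and Hoxa3 and Hoxb9 lie next to 0.

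Hoxa9, a posterior gene of HoxA that acts in trunk patterning and in blood stem cells, showed the largest difference. Its FPKM was 5.18 and 6.11 in 10p-HFSCs, then 0.0207 and 0.0734 in 48p-HFSCs, a fall of the log2 value by 2.66 ± 0.24 (SE, adjusted p = 0.0017). In estimated fragments this was 590 over both 10p libraries and 3 over both 48p libraries, a ratio per depth of 149 with a 95% Clopper-Pearson interval from 50.6 to 723, which covers counting error only. Over the 16 alternatives its difference stayed between -5.31 and -2.56, with adjusted p between 1.93e-05 and 0.0448. It was the only Hox gene that stayed called under every one of them, although those with looser thresholds could not remove a call. Hoxa9 passed the filter through 10p-HFSCs alone, so under that filter it could only differ downward. The gene lies on chromosome 6 of mm10 (GRCm38) in the HoxA cluster, which spans chr6:52155590-52260880 on the minus strand.

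Hoxa7, which stands next to Hoxa9 and belongs to the trunk-level middle group, had 23.2 and 17.1 FPKM in 10p-HFSCs, then 4.55 and 1.62 in 48p-HFSCs. It fell by 2.46 ± 0.43 on the log2 scale (adjusted p = 0.014). Both 48p libraries lay far under both 10p libraries, although the 48p replicates themselves differed by more than 2-fold, and its adjusted p was 0.24 without replicate 1 and 0.17 without replicate 2 of 10p-HFSCs. Hoxa10, the next gene on the posterior side of Hoxa9, went the other way in its values. It was listed at 0 in both 10p libraries and stood at 2.02 and 0.428 in 48p-HFSCs, or about 81.0 and 9.64 estimated fragments. It was not tested under the filter, and without a filter its difference was 1.06 ± 0.38 (adjusted p = 0.16), so it was not called.

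The promoters of Hoxa7, Hoxa9 and Hoxa10 are shown because Hoxa7 and Hoxa9 had the largest falls and Hoxa10, their neighbour, was not called but had higher values in 48p-HFSCs, as reference sequence from RefSeq on GRCm38.p6, read along the minus strand from 250 bases before to 50 bases after an annotated start, with each CpG in capitals. The Hoxa10 start shown is the outermost one of the gene in GENCODE, whereas the Hoxa7 and Hoxa9 starts lie 3281 and 3719 bases inside the outermost GENCODE start of their genes.
Hoxa7 (chr6:52218524-52218823): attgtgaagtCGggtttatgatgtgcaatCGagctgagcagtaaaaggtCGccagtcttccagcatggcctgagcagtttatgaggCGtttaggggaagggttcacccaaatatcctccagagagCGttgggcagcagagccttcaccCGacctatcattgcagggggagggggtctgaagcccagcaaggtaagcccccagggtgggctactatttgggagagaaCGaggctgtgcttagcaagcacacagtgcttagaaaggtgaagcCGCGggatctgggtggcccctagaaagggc
Hoxa9 (chr6:52227321-52227620): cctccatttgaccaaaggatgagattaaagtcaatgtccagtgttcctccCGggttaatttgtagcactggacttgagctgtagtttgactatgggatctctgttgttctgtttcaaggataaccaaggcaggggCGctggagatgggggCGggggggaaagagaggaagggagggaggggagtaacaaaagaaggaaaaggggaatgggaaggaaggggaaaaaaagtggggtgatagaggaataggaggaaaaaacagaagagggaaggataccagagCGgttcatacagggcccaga
Hoxa10 (chr6:52240805-52241104): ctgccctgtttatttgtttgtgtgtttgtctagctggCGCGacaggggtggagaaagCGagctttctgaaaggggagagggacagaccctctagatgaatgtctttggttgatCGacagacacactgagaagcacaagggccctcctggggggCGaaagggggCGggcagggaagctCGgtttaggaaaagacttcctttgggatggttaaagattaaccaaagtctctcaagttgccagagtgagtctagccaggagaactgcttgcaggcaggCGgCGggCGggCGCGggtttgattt
These windows held 9, 4 and 12 CpG. A second Hoxa10 window (chr6:52234890-52235189), which lies 5915 bases inside the outermost start and is not shown, held 21. Over the 24 windows that the table holds for 22 Hox genes, the median was 14.5 with a range from 4 to 45, and over all 32851 windows the median was 7. No DNA methylation was measured.

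The anterior HoxA genes were mixed. Hoxa2, which specifies the second branchial arch, had 5.66 and 7.90 and then 2.17 and 1.93, and fell by 1.34 ± 0.29 on the log2 scale (adjusted p = 0.026). Hoxa3, a gene of the neck and pharyngeal organs, had 5.66 and 7.001 and then 6.95 and 5.01 (-0.08 ± 0.30, adjusted p = 0.87). Its groups overlapped, whereas Hoxa2 beside it was called lower. Hoxa4 had 0.479 and 0.772 in 10p-HFSCs, then 0.979 and 2.05 in 48p-HFSCs, with both 48p libraries above both 10p libraries. It was not tested under the filter, and without a filter the difference was 0.60 ± 0.28 (adjusted p = 0.24).

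Hoxa5, which patterns the lung and the cervicothoracic skeleton, had 6.10 and 8.03 FPKM in 10p-HFSCs, then 2.71 and 2.63 in 48p-HFSCs, and fell by 1.13 ± 0.28 on the log2 scale (adjusted p = 0.039). Hoxa6 had 3.44 and 1.51 in 10p-HFSCs, then 1.31 and 0 in 48p-HFSCs (-1.14 ± 0.48, adjusted p = 0.15). The 10p replicates of Hoxa6 were more than 2-fold apart, and no 48p value exceeded a 10p value. With 1 library left out its difference ranged from -1.74 to -0.54, and it was called lower without replicate 1 of 48p-HFSCs (adjusted p = 0.0468). Hoxa2 and Hoxa5 lost their call without either 10p library and without replicate 2 of 48p-HFSCs, with adjusted p of 0.19, 0.26 and 0.068 for Hoxa2 and 0.27, 0.33 and 0.077 for Hoxa5, in that order.

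Part of the HoxA annotation overlaps itself. In GENCODE M21, Hoxa3 has transcripts that run through Hoxa4, Hoxa5 and Hoxa6 on the same strand, and Hoxaas3 lies antisense to Hoxa3, Hoxa4, Hoxa5, Hoxa6 and Hoxa7. A stranded kit was used, and the strand setting of the counting is not given in the sources used here, so the division of reads among these genes is uncertain. Hoxaas3 itself was at most 0.695 FPKM and Hoxaas2 at most 0.824.

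The promoter of Hoxa2 is shown because Hoxa2 was called lower and its window was the HoxA window with a match to TGATTNAT, a Hox-Pbx motif searched on both strands.
Hoxa2 (chr6:52164782-52165081): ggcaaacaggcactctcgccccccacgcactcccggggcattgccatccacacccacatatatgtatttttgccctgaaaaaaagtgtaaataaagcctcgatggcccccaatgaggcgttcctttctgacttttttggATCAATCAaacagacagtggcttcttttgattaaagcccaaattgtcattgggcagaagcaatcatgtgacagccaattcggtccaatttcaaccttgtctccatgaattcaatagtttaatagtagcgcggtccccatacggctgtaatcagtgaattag
Capitals mark the match, which is on the opposite strand of the one printed. Of the 24 Hox windows 2 held this motif, the other one at Hoxd11, and 3.22% of all promoter windows did. TAATTA, a general homeodomain core, was in 2 Hox windows and in 5.29% of all windows, and CCAAT was in 15 Hox windows and in 37.4% of all windows. All motifs were searched on both strands, and matches of different motifs may overlap. A match is a description of the sequence and binding was not measured.

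Within HoxB, the genes called lower were Hoxb2 and Hoxb3, toward the anterior end. Their position depends on the thresholds. Hoxb8, toward the posterior end, had a difference of -0.97 in limma (adjusted p = 0.061) and was not called. Hoxb2, a hindbrain-level gene, had 6.20 and 6.84 FPKM in 10p-HFSCs, then 2.52 and 3.01 in 48p-HFSCs, and fell by 1.0005 ± 0.27 on the log2 scale (adjusted p = 0.048). This call stood at the limit of both thresholds and was lost under 10 of the 16 alternatives, among them leaving out any 1 of the 4 libraries (adjusted p between 0.048 and 0.35). Hoxb3, a gene of the hindbrain and of the pharyngeal glands, had 3.82 and 3.41 and then 1.18 and 0.168, and fell by 1.53 ± 0.36 (adjusted p = 0.033). The 48p values of Hoxb3 rested on about 59.9 and 4.80 estimated fragments, and its adjusted p was 0.28 and 0.22 without replicate 1 and replicate 2 of 10p-HFSCs.

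Hoxb4, known for its effect on blood stem cells, had 1.90 and 2.25 FPKM in 10p-HFSCs, then 0.998 and 0.354 in 48p-HFSCs (-0.90 ± 0.28, adjusted p = 0.075). Hoxb8 had 2.74 and 2.96 and then 1.35 and 0.643 (-0.97 ± 0.28, adjusted p = 0.061). For both genes the groups did not overlap and the call was not reached, and without replicate 1 of 48p-HFSCs both were called lower (adjusted p = 0.015 for each). The remaining middle genes overlapped between the groups. Hoxb5 had 1.67 and 3.27 and then 2.09 and 1.30 (-0.34 ± 0.33, adjusted p = 0.49). Hoxb6 had 3.45 and 5.12 and then 3.48 and 2.71 (-0.36 ± 0.30, adjusted p = 0.42). Hoxb7 had 8.80 and 10.4 and then 6.08 and 8.83 (-0.34 ± 0.30, adjusted p = 0.44). Hoxb5 and Hoxb6 have the antisense gene Hoxb5os across them, at 0.538 to 0.898 FPKM. Hoxb1 was listed at 0 except for 0.0558 in replicate 2 of 48p-HFSCs, which was about 1 estimated fragment. The HoxB cluster spans chr11:96194316-96368256 on the plus strand.

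**Figure D4:**
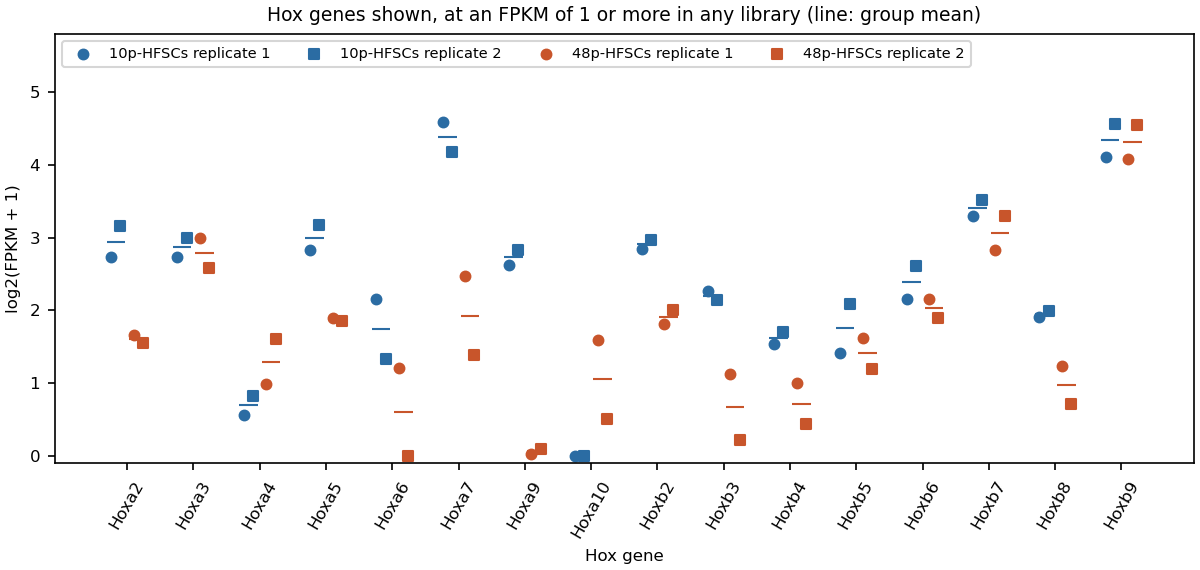
Level of 16 of the Hox genes that reached an FPKM of 1 in any library, as log2(FPKM + 1), with a point for each library and a line for the group mean. The blue 10p points of Hoxa7 and Hoxa9 lie clear of the orange 48p points, those of Hoxb9 and Hoxa3 are interleaved, and Hoxa10 has its 10p points at 0.

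Paralogs of 1 number in the 2 clusters did not share one outcome. Of paralog group 2, both Hoxa2 and Hoxb2 were called lower. In group 3, Hoxb3 was called lower and Hoxa3 was not, in group 5 Hoxa5 was and Hoxb5 was not, in group 7 Hoxa7 was and Hoxb7 was not, and in group 9 Hoxa9 was and Hoxb9 was not. Whether the differences of paired paralogs themselves differ was not tested.

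In HoxC, Hoxc5, Hoxc6 and Hoxc9 had both 48p values above both 10p values, at levels under an FPKM of 1. The share of all genes that lay this way was not computed, so this only describes the values. Hoxc5 was at 0 and 0.0270 FPKM in 10p-HFSCs, then at 0.933 and 0.207 in 48p-HFSCs. Hoxc6 was at 0.0352 and 0.147 and then at 0.552 and 0.226, and Hoxc9 was at 0 in both 10p libraries and at 0.505 and 0.207 in the 48p libraries. The 48p values stood for about 43.0 and 5.38 estimated fragments of Hoxc5 and 18.6 and 4.29 of Hoxc9. Without a filter on low values none of these was called (adjusted p = 0.19 for Hoxc5, 0.19 for Hoxc6 and 0.097 for Hoxc9). The annotated span of Hoxc5 covers Hoxc6, Hoxc8, Hoxc9 and Hoxc10 on the same strand, so which of them the fragments came from is uncertain. Hoxc4 and Hoxc10 were listed at 0.0662 and 0.0689 in replicate 1 of 48p-HFSCs and at 0 elsewhere, and Hoxd4 was at 0.0250 in that library and at 0 elsewhere.

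The clusters hold microRNA genes of the miR-10 and miR-196 families that are known to target Hox transcripts. The libraries were made from mRNA and did not measure mature microRNAs, and the 6 genes Mir10a, Mir10b, Mir196a-1, Mir196a-2, Mir196b and Mir615 were listed at 0. The miR-196b sequence is shown from RefSeq (chr6:52230129-52230150, GRCm38.p6, minus strand, inside Hoxa9), together with sites in the 3′UTR of 3 Hox genes that had different outcomes. Capitals mark the seed in the microRNA, bases 2 to 8, and the letters that match it in the target sites, which were read from GENCODE M21 transcripts.
mmu-miR-196b-5p: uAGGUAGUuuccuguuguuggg
Hoxa7 site: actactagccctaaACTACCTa
Hoxa9 site: caaaaggaaagaaaACTACCTt
Hoxb7 site: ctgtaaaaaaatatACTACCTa
The site ACTACCT was in the 3′UTR of 9 of the 39 Hox genes and of 6.81% of the 19892 genes with a 3′UTR, and mmu-miR-196a-5p has the same seed. Among the genes that held it, Hoxa5, Hoxa7 and Hoxa9 were called lower and Hoxb6 and Hoxb7 were not called. Hoxa7 held 4 such sites. The seed site of miR-10a and miR-10b, ACAGGGT, was in 4 Hox genes, Hoxa3 and Hoxb3 among them, and in 13.1% of all these genes.

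Of the non-coding genes in the clusters, 17 of the 20 looked for were listed and 3 were tested. Of these 3, 1 was called lower and 0 were called higher, beside 9.15% and 10.8% of all genes tested. Mira, a non-coding RNA of the HoxA cluster, had 57.5 and 97.0 FPKM in 10p-HFSCs, then 19.5 and 12.0 in 48p-HFSCs and fell by 2.21 ± 0.37 on the log2 scale (adjusted p = 0.013). This call was lost without either 10p library and without replicate 2 of 48p-HFSCs, in each of which 0 of the 3 genes were called lower. Hotairm1, an RNA of the HoxA cluster, had 36.5 and 68.4 and then 67.5 and 369, so that replicate 2 of 48p-HFSCs stood far above the rest (1.64 ± 0.80, adjusted p = 0.19). Gm53, in the HoxB cluster, had 12.96 and 9.71 and then 17.9 and 3.78 (-0.36 ± 0.64, adjusted p = 0.71). The known regulators Hotair, Hottip, Haglr and Hoxa11os were listed at 0 in every library. Without replicate 1 of 48p-HFSCs, Hotairm1 was called higher and Gm53 and Mira were called lower.

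Among the TALE cofactors, which bind DNA beside Hox proteins, Pbx2 (18.4 and 20.97, then 14.1 and 12.9), Pbx3 (15.04 and 16.2, then 12.0 and 10.9), Meis2 (3.94 and 3.61, then 2.66 and 1.80) and Pknox1 (5.07 and 5.67, then 4.84 and 4.20) had both 48p libraries below both 10p libraries and were not called. Pbx4 (0.683 and 1.13, then 2.22 and 5.30) and Meis1 (3.77 and 3.31, then 4.77 and 5.27) had both 48p libraries above and were not called. Pbx4 was called higher without replicate 1 of 48p-HFSCs (its value in all 4 libraries was 1.25 ± 0.38, adjusted p = 0.071).

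Of the 13 Polycomb genes, which keep Hox genes silent, all were tested, 3 were called lower and 1 was called higher, beside 9.15% and 10.8% of all genes tested, so the share called higher lay near that of all genes. Bmi1 (34.7 and 33.5, then 16.3 and 9.11 FPKM; -1.41), Cbx6 (30.5 and 33.7, then 8.75 and 8.91; -1.75) and Cbx7 (4.54 and 5.51, then 1.47 and 1.79; -1.19), which are parts of the PRC1 complex, fell (adjusted p = 0.034, 0.0068 and 0.029). Ezh1, a methyltransferase of PRC2, rose from 5.90 and 6.41 to 15.8 and 12.8 (1.09 ± 0.27, adjusted p = 0.040). None of the 4 was called without replicate 1 or without replicate 2 of 10p-HFSCs, Ezh1 was not called without replicate 1 of 48p-HFSCs, and after rescaling to TPM only Cbx6 was called. All 12 genes of the Trithorax group and of the H3K27 demethylases were tested and 0 were called in either direction, nor did any have an unadjusted p under 0.05, with differences from -0.62 to 0.16.

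The retinoic acid and Cdx list had 16 genes, of which 6 were tested. Of these 6, 1 was called higher and 1 lower, beside 10.8% and 9.15% of all genes tested. Aldh1a1, an enzyme that makes retinoic acid, rose from 0.454 and 0.187 to 10.8 and 13.9 FPKM (3.34 ± 0.28, adjusted p = 0.0015), and Cyp26b1, which degrades it, fell from 2.12 and 2.06 to 0.761 and 0.349 (-1.005 ± 0.25, adjusted p = 0.041). Aldh1a1 passed the filter through 48p-HFSCs alone and Cyp26b1 through 10p-HFSCs alone, so each could only differ in the direction given. The Aldh1a1 and Cyp26b1 calls were both lost without either 10p library, and that of Cyp26b1 also without replicate 2 of 48p-HFSCs and after rescaling to TPM. The receptors Rara, Rarg, Rxra and Rxrb were not called, and the Cdx genes, which act upstream of trunk Hox genes in the embryo, were listed at 0.

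Other homeobox and T-box genes with positional expression numbered 30, of which 17 were listed at 0 and 8 were tested. Of these 8, 6 were called lower and 0 higher, beside 9.15% and 10.8% of all genes tested. Irx1 had 16.8 and 18.6 FPKM in 10p-HFSCs and was listed at 0 in both 48p libraries (adjusted p = 0.00092). Barx2, an epithelial and muscle homeobox gene, fell from 40.4 and 51.2 to 2.23 and 3.16 (-3.66 ± 0.29, adjusted p = 0.0012). Irx5 (11.2 and 11.01, then 0.161 and 0), Dlx1 (2.88 and 3.18, then 0.0458 and 0), Irx2 (25.5 and 24.6, then 6.34 and 7.73) and Pitx1 (34.4 and 44.5, then 20.6 and 15.7), a gene of hind limb identity, fell as well. Irx1, Irx5 and Dlx1 passed the filter through 10p-HFSCs alone and could only differ downward, which leaves 3 of the 6 calls with a direction that the filter did not fix. Tbx15, known for dorsoventral patterning of the skin, had 7.14 and 7.14 and then 10.4 and 5.04 and was not called. Without replicate 1 or replicate 2 of 10p-HFSCs, 2 of these genes were called lower, Irx1 and Irx5 in both, and without replicate 1 and replicate 2 of 48p-HFSCs there were 7, with Otx1 added, and 5, with Pitx1 lost.

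The genes beside the clusters differed by cluster. Taking the genes within 500 kb on either side, 0 of 3 tested beside HoxA, 1 of 11 beside HoxB, 9 of 16 beside HoxC and 0 of 1 beside HoxD were called higher, and none beside any cluster was called lower. On the whole of chromosome 15, which carries HoxC at chr15:102921103-103036852, 16.0% of 418 genes tested were called higher, compared with 10.8% of all genes. The 16 genes beside HoxC all had differences above 0, with a median of 1.57 compared with 0.30 on chromosome 15. Beside HoxC, Nckap1l, a regulator of actin in blood cells, was at 0.0758 and 0.0303 FPKM in 10p-HFSCs, then at 12.5 and 12.8 in 48p-HFSCs, Itga5, the α5 integrin, was at 0.0352 and 0 and then at 6.88 and 5.88, and Pde1b was at 0.0162 and 0 and then at 2.23 and 2.13. These 3 genes passed the filter through 48p-HFSCs alone and could therefore only differ upward. They count among the 16 differences, the 9 calls and the median, whereas the direction of the other calls was not fixed by the filter. Calcoco1 (4.63 and 3.23, then 22.1 and 25.4; 2.34 ± 0.29), Prr13 (20.5 and 27.2, then 120 and 214), Zfp385a (14.8 and 16.5, then 40.5 and 65.3), Copz1 (41.1 and 49.7, then 103 and 245), Tarbp2 (6.33 and 8.43, then 16.0 and 26.1) and Smug1 (4.92 and 5.91, then 13.8 and 12.1) also rose. The count of 9 became 0 without replicate 1 and 0 without replicate 2 of 10p-HFSCs, 11 without replicate 1 and 7 without replicate 2 of 48p-HFSCs, and 6 after rescaling to TPM, with the median above 1 in each.

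**Figure D5:**
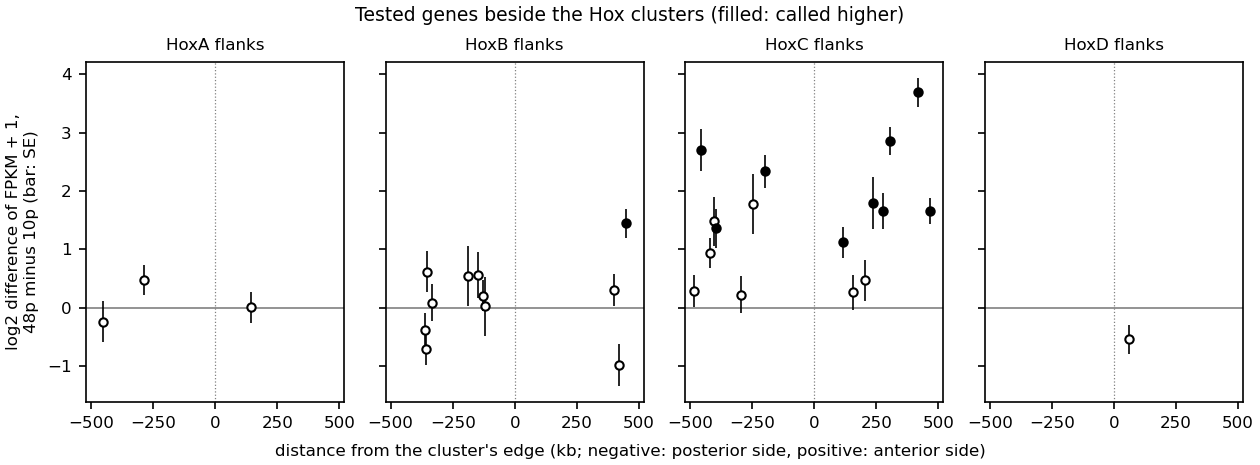
Difference in log2(FPKM + 1), 48p minus 10p, of tested genes within 500 kb of each Hox cluster against their distance from the edge of the cluster in kb, with bars for the SE and filled circles for genes called higher. All 16 points beside HoxC lie above 0 on both sides of the cluster, whereas those beside HoxA and HoxB lie on both sides of 0 and the 1 gene beside HoxD lies below it.

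The other genes of the neighbour list that were tested were not called. Beside HoxA, Skap2 (84.1 and 72.4, then 74.7 and 82.6 FPKM), Snx10 (21.8 and 25.6, then 25.2 and 20.4) and Tax1bp1 (86.9 and 66.0, then 83.1 and 49.6) overlapped between groups, and Hibadh (23.2 and 23.8, then 29.0 and 37.7) did not. Beside HoxB, Snx11, Ube2z and Atp5g1 overlapped, whereas Cbx1, a heterochromatin protein gene, had 57.8 and 45.1 and then 34.6 and 18.6 (-0.98) and was called lower without replicate 1 of 48p-HFSCs. Nfe2l1, a transcription factor gene of the wider flank of HoxB, rose from 41.2 and 37.7 to 110 and 110 (1.45 ± 0.25, adjusted p = 0.013), a call that was lost without either 10p library. Near HoxD, Mtx2 had 90.0 and 92.3 and then 59.7 and 65.1, Lnp had 2.70 and 2.72 and then 3.09 and 3.79, and Atp5g3, Hnrnpa3 and Nfe2l2 overlapped. Beside HoxC, Cbx5 and Hnrnpa1 were above 0 in difference (0.26 and 0.47) without a call.

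Markers of other cell types moved between the groups and are given beside the Hox values because Hox levels differ between skin cell types. In bulk RNA, fewer cells of a type and less RNA per cell cannot be told apart. Among all genes tested, 9.15% were called lower and 10.8% higher. Of 12 fibroblast and mesenchyme markers 2 were tested and both were called lower, Vim from 284 and 327 to 2.35 and 3.08 FPKM and Col1a2, which passed the filter through 10p-HFSCs alone, from 67.6 and 59.3 to 0, and the summed level of the list was 353 and 388 in 10p-HFSCs, then 5.88 and 4.17 in 48p-HFSCs. The fibroblast-defining markers Dcn, Lum, Thy1 and Twist1 were at 0 in every library, Pdgfra was at most 0.284 and Col1a1 at most 0.903. Twist2 had 0.0441 and 0.0615 in 10p-HFSCs, then 3.35 and 0.849 in 48p-HFSCs, and was not tested under the filter (1.43 ± 0.44 without it, adjusted p = 0.12), and Col3a1 overlapped between groups at no more than 0.195. Of 5 leukocyte markers 2 were called higher, and as both passed the filter through 48p-HFSCs alone they could only differ upward. Cd74 had 0.335 and 0.201 in 10p-HFSCs, then 61.2 and 102, and Lyz2 had 0.286 and 0.479, then 3.04 and 1.96, whereas Cd3e and Tyrobp were at 0 and Ptprc was at most 0.0711, and the summed level of the list was 0.641 and 0.694 and then 64.3 and 104. Of 10 keratinocyte markers 3 were called higher (Itga6, Itgb4 and Pkp1) and 0 lower. The summed level of the list was 3976 and 3300 in 10p-HFSCs, then 13036 and 8374 in 48p-HFSCs. These sums were not rescaled by library. Replicate 2 of 48p-HFSCs, at 8374, had an FPKM total of 1414953, compared with 581516 to 719012 in the other libraries. The gap between the groups in this sum therefore depends on the scaling. Without either 10p library, Vim, Col1a2 and Cd74 were still called, and Itga6, Itgb4, Pkp1 and Lyz2 were not. Pkp1 also lost its call without replicate 1 and Itgb4 without replicate 2 of 48p-HFSCs, and after rescaling to TPM the keratinocyte calls were Krt5, higher, and Epcam, lower. The part of these markers in the Hox differences was not tested.

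The remaining marker lists held few tested genes. Of 10 hair follicle stem cell markers 3 were tested, and Sox9 fell from 45.6 and 44.2 to 20.2 and 8.31 FPKM (-1.71 ± 0.42, adjusted p = 0.039), Krt15 (136 and 82.6, then 425 and 18.8) and Nfib (5.86 and 7.27, then 12.2 and 12.97) were not called, and Cd34, named in the sort, was not tested. The fall of Sox9 is opposite in direction to the increase that the paper reports by qRT-PCR. Of 14 hair keratins and Foxn1 listed 3 were tested, of which 1 was called higher and 0 lower, beside the same shares of all genes. Foxn1, the nude gene, which acts in hair differentiation, rose from 2.56 and 3.26 to 14.5 and 6.84 (1.502 ± 0.39, adjusted p = 0.047). Of 6 melanocyte and of 5 endothelial markers 1 each was tested, Tyr (0.0945 and 0.286, then 1.33 and 9.48) and Pecam1 (2.38 and 2.24, then 1.01 and 0.172), and neither was called. The Sox9 and Foxn1 calls were lost without either 10p library, which left 0 called in each list, and without replicate 1 of 48p-HFSCs Krt15 and Pecam1 were called lower and Tyr was called higher.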

How the data were processed

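RNA-seq of 2 libraries of 10p-HFSCs and 2 of 48p-HFSCs was analysed. The authors prepared libraries with a TruSeq stranded mRNA kit, sequenced single-end reads, mapped them to mm10 and deposited 1 FPKM value for each gene symbol in each library, computed with the Cufflinks suite. The submitters' processing notes name TopHat2 2.1.1, Bowtie2 2.2.8, SAMtools 0.1.18 and Cuffdiff 2.2.1, whereas the paper's methods name other versions of Bowtie2 and SAMtools. The gene annotation, the strand setting and the handling of reads with several map positions are not given in the sources used here. FPKM values carry no counts, and in a library where a few genes take many fragments the values of all others shift.

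Libraries were grouped by the labelled passage number. Values were taken as log2(FPKM + 1), the 11018 genes that reached an FPKM of 1 in 2 or more libraries entered a limma fit (version 3.58.1, R 4.3.3, lmFit and eBayes with trend), and p-values were adjusted by Benjamini-Hochberg. Fold changes are on the log2(FPKM + 1) scale, which understates the change of low genes. Genes were called at an adjusted p under 0.05 and a log2 difference of at least 1. The fit was tested on simulated data. Estimated fragments used the longest transcript of GENCODE M21, built on GRCm38, to which 95.7% of the symbols were matched by name.

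The Hox genes and the lists around them were chosen with earlier results of these data known. Named are every Hox gene with an FPKM of at least 1 in any library, up to 6 called members of each list with the largest differences, the TALE cofactors and cluster neighbours tested, and markers where a list is described. Results of 2 genes are not reported here. The HoxC genes below 1, the other genes within 500 kb of a cluster, Hoxb1, Hoxd4, Hotair, Hottip, Haglr, Hoxa11os, Hoxaas2, Hoxaas3, Hoxb5os and the genes named in the lists of uncalled members were chosen after their values were seen. Alternatives were other pseudocounts, filters, scalings, variance priors, thresholds, a replicate block and leaving out each library.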

Additional observations from a re-analysis of the deposited data

How the results depend on the processing

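The direction of the 6 Hox calls held under all 16 alternatives, and 0 Hox genes were called higher in any. Alternatives in the filter, the variance prior, the thresholds or the replicate block left each fitted difference unchanged. Its sign could not change in those, so they say nothing on direction. Under the main filter Hoxa9 could only differ downward. Hox genes called lower numbered 6, and 2 without a filter on low values (Hoxa7 and Hoxa9), where 16679 genes were tested, and 3 after rescaling to TPM. Leaving out 1 library gave 1 to 8. Among all genes, 1189 were called higher and 1008 lower, and 623 and 812 after rescaling to TPM, 816 and 637 without a filter, and 35 to 1936 and 140 to 1875 with 1 library left out. Rescaling moved the median of all genes from -0.03 to -0.56 on the log2 scale, and relative to it Hoxa7 stood at -2.40, Hoxa9 at -2.66 and Hoxb9 at -0.03. Members of the lists called higher numbered 11, and 5 after rescaling to TPM. Hox genes expressed in both libraries numbered 15 in 10p-HFSCs and 10 in 48p-HFSCs, 11 and 3 at an FPKM of at least 3, and 16 and 14 at one of at least 0.3, and 11 and 14 met the limit of 1 in 48p-HFSCs without replicate 1 and replicate 2. Where 1 library was left out of a group of 2, the lone library was assumed to vary like the other group. Values of uncalled genes near 0 changed sign, for Hoxa3 to 0.029 under quantile normalization, and with 1 library left out Hoxa3 ranged from -0.28 to 0.12 and Hoxb9 from -0.25 to 0.21. The causes were not tested. A correction for transcript length and GC content, chosen after seeing the data, gave 7 Hox genes called lower. The replicate numbers mark no shared culture or day in the labels, and deviations of same-numbered libraries correlated at 0.408. With the replicate block, 1613 genes were called higher and 1497 lower, Hox genes called lower numbered 7 with Hoxa6 added, and 9 with the correction as well. Depth limits the low genes, most in replicate 2 of 48p-HFSCs.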
